A study of Mus musculus with 4 samples.

Results

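Newborn (P0) mouse ureters were kept in explant culture for 8 days with 2 µM purmorphamine, a small molecule that activates Smoothened and thereby SHH signaling in cells that do not receive the SHH ligand. Control ureters carried a floxed *Pparg* allele without cre (*Pparg* fl/?), and *Pparg-cKO* ureters carried *Pax2-cre*/+ and *Pparg* fl/fl, both on the NMRI outbred strain. *Pax2-cre* recombines in the nephric duct, the ureteric epithelium and the renal collecting duct system, so that *Pparg* stays intact in the ureteric mesenchyme of the mutants. RNA came from sex-sorted pools of ureters, whose number per pool is not given in the sources used here. The comparison rests on the 4 purmorphamine channels of 4 two-color arrays with 8 channels in all: 2 control pools and 2 *Pparg-cKO* pools, each with 1 male pool (replicate 1, AlexaFluor647) and 1 female pool (replicate 2, AlexaFluor555). The other channel of each array held the DMSO-treated pool of the same genotype and sex. The DMSO pools are used here to place the result. They also enter the tests, since all 8 channels were fitted together with a shared estimate of the spread. The question was which differences between the genotypes persisted when SHH signaling was activated in both.

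PPARG is a nuclear receptor that binds fatty acid ligands, pairs with RXR on DNA and is best known for fat cell differentiation and lipid storage. In the urothelium of the ureter it is found in all cell layers, and most strongly in the luminal layer. This layer is made of superficial cells, whose uroplakin plaques seal the urinary tract. SHH is made by the basal and intermediate urothelial cells and acts on the underlying mesenchyme, where its receptor PTCH1 releases Smoothened and GLI factors switch on targets such as *Ptch1*, *Gli1* and *Hhip*.

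All 4 arrays lay on 1 slide and were scanned together. In each channel 66.3% to 70.5% of the spots exceeded background clearly, 0 spots were saturated, and the number of arrays limits the precision. *Xist* was at a log2 intensity of at least 12.19 in all female channels and of at most 6.20 in all male channels, as labelled. The *Pparg* probe does not check the genotype, since the *Pparg-cKO* allele leaves an mRNA without exons 2 and 3. *Pparg* read 15.10 and 15.18 (log2 intensity, male and female pool) in control and 15.95 and 16.10 in *Pparg-cKO* ureters, and rose by 0.88 on the log2 scale (SE 0.17, adjusted p = 0.048, and 0.12 with the replicate number as a block). Purmorphamine and DMSO channels of the same pool number differ in dye, and genotypes were never on the same array.

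With purmorphamine, the *Pparg-cKO* pools had 250 of 20231 genes higher and 387 lower than the control pools at an adjusted p under 0.05 (limma, Benjamini-Hochberg), which is 1.24% and 1.91% of the genes tested. The rule of the methods, which asks without a test for an intensity above 100 in the brighter pool and a change of 1.5-fold or more in the male and again in the female pair, both up or both down, gave 468 higher (3.06%) and 494 lower genes (3.23%) of 15312, which hold 161 of the 250 and 269 of the 387. Among the higher genes 139 changed at least 2-fold, and among the lower genes 192. With the replicate number as a block the counts were 77 and 70. Leaving out 1 array gave 19 and 5 genes without control replicate 1, 12 and 5 without control replicate 2, 52 and 24 without *Pparg-cKO* replicate 1, and 116 and 231 without *Pparg-cKO* replicate 2. With DMSO, 404 genes were higher (2% of those tested) and 389 were lower (1.92%). Of the genes higher with purmorphamine, 196 were also higher with DMSO, which is 78.4% of the purmorphamine list and 48.5% of the DMSO list. Of the lower genes, 255 were lower with both, 65.9% and 65.6% of the lists. In 0 genes did the genotype effects have opposite calls. Called only with purmorphamine were 54 higher and 132 lower genes, and called only with DMSO were 208 and 134. A gene called in only one of the treatments does not thereby differ between them: the test of the difference itself called 0 genes (lowest adjusted p = 0.41), while 227 genes above and 334 below 0 had an unadjusted p under 0.05.

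Taking the genes called with DMSO, the median log2 fold change of the 404 higher genes was 1.12 with DMSO and 0.74 with purmorphamine, and 393 of them had the same sign with purmorphamine. The 389 lower genes had medians of -1.02 and -0.91, and 384 kept the sign. The choice of genes by their DMSO call favors a larger DMSO value. The opposite choice gave medians of 1.08 with purmorphamine and 1.22 with DMSO for the 250 genes called higher with purmorphamine, and of -0.99 and -0.91 for the 387 lower genes.

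**Figure D1:**
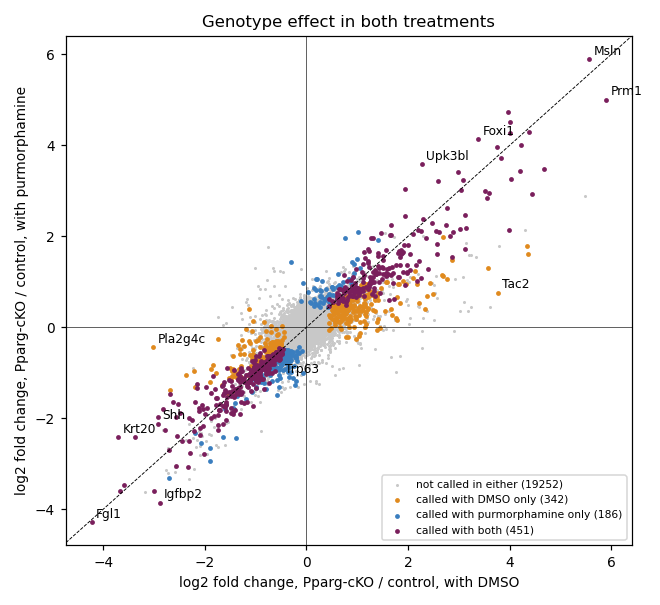
Log2 fold change of *Pparg-cKO* over control for each of 20231 genes, with DMSO on the x axis and with purmorphamine on the y axis, and the line of equal effects dashed. The 451 genes called with both treatments lie near that line in the upper right and lower left, and *Tac2* and *Pla2g4c* are far from it.

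Of 6 uroplakins, 1 was lower (1.91% of all genes), 1 was higher (1.24% of all genes) and 4 did not pass the test with purmorphamine. Uroplakins build the plaques of the superficial cell membrane. *Upk3b* read 13.16 and 13.58 in control and 12.15 and 12.45 in *Pparg-cKO* pools (log2 intensity, male and female) and fell by 1.07 on the log2 scale (SE 0.18, adjusted p = 0.034). The groups did not overlap. *Upk1a* (-0.40, 95% interval -0.95 to 0.16), *Upk1b* (-0.48, -0.88 to -0.08), *Upk2* (-0.63, -1.05 to -0.22) and *Upk3a* (-0.24, -0.52 to 0.05) did not pass the adjusted threshold. With DMSO, *Upk1a* and *Upk1b* fell by 1.34 and 1.31 on the log2 scale (adjusted p = 0.029 and 0.010). The difference between treatments had an unadjusted p of 0.023 for *Upk1a* and 0.0095 for *Upk1b* and an adjusted p of 1. *Upk3bl*, a uroplakin-3-like gene, went the other way: it read 10.05 and 9.93 in control and 13.60 and 13.55 in *Pparg-cKO* pools and rose by 3.58 (SE 0.21, adjusted p = 0.0014). It was called under all 14 alternatives of the fit, including each left-out array, whereas *Upk3b* was called under 8 of 14 and with 0 of the 4 arrays left out (adjusted p = 0.096 to 0.27).

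*Krt20*, the keratin of superficial cells, read 14.73 and 15.20 in control and 11.97 and 13.13 in *Pparg-cKO* pools, and fell by 2.42 (SE 0.37, adjusted p = 0.024). Of the fits with 1 array left out, its call held only without *Pparg-cKO* replicate 2 (the others gave adjusted p = 0.079 to 0.21). In the superficial cell list beside the uroplakins, 8 of 17 genes passed the test, all lower (1.91% of all genes), and all 17 had a negative log2 fold change, with a median of -1.10 (median over all genes -0.0042). With DMSO, 12 of 17 were lower (1.92% of all genes), with a median of -1.45. *Fa2h*, which hydroxylates fatty acids for sphingolipids, fell by 1.47 (adjusted p = 0.025), *Paqr5*, a progestin receptor, by 1.26 (adjusted p = 0.016) and *Rnf144b*, a ubiquitin ligase, by 1.44 (adjusted p = 0.020). With the replicate block the adjusted p was 0.14 for *Fa2h* and 0.056 for *Rnf144b*, so that these calls were lost. *Hsd17b2*, which oxidizes estradiol, was at -1.05 (adjusted p = 0.13) and *Sptssb*, a subunit of serine palmitoyltransferase, at -1.38 (adjusted p = 0.068). In the parallel DMSO cultures they fell by 2.38 and 2.69. Limma's test of the difference between treatments called neither (unadjusted p of 0.014 for *Hsd17b2*). The list was chosen with results of these data known, and its calls dropped to 3 with the replicate block, to 1 without *Pparg-cKO* replicate 1 (median -0.92) and to 0 without control replicate 1 (-1.35) or control replicate 2 (-0.92).

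**Figure D2:**
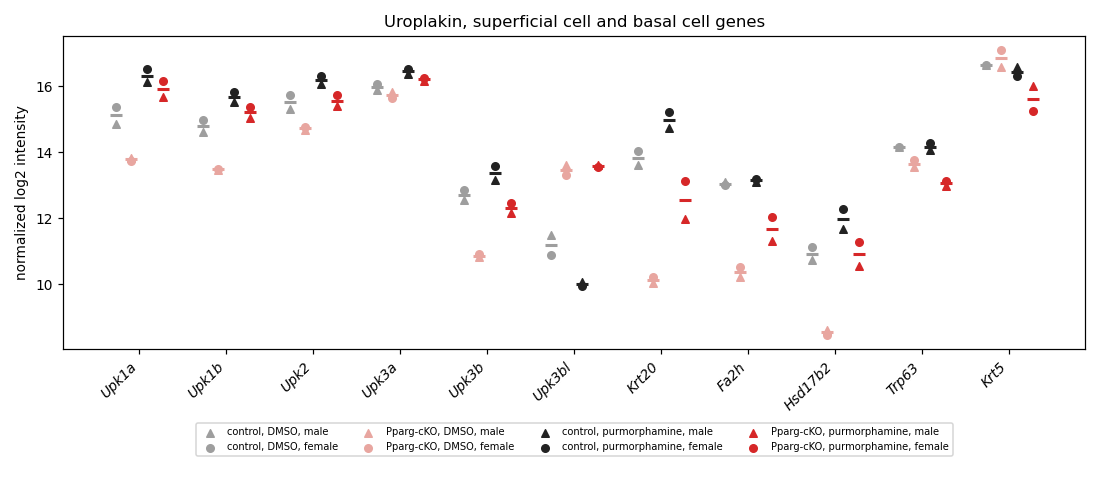
Normalized log2 intensity of 11 urothelial genes in each pool (triangles male, circles female, bars the group mean). *Krt20* read 11.97 and 13.13 in *Pparg-cKO* pools with purmorphamine, below the control pools at 14.73 and 15.20, whereas *Upk3bl* was higher in the mutants.

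Among urothelial transcription factors, *Trp63*, which maintains basal cells, read 14.06 and 14.26 in control and 12.96 and 13.14 in *Pparg-cKO* pools and fell by 1.11 (SE 0.12, adjusted p = 0.011). With DMSO its value was -0.51 (adjusted p = 0.079). *Ppara*, a relative of PPARG that drives fatty acid oxidation, fell by 1.20 (adjusted p = 0.029), and *Elf5*, an ETS factor, rose by 1.17 (adjusted p = 0.021, and 0.079 with the replicate block). *Gata3*, *Foxa1* and *Klf5* had values of 0.07, 0.05 and -0.05. Of the 7 basal and stress keratins, 0 were called. *Krt5* was at -0.82 (adjusted p = 0.20) and *Krt17* at 1.29 (adjusted p = 0.35). In the parallel DMSO cultures *Krt17* was at 3.57 (adjusted p = 0.021), where the *Pparg-cKO* pools read 9.88 and 11.63 (male and female). Limma's test of the difference between treatments had an unadjusted p of 0.024 for *Krt17* and did not call it. *Krt16*, *Krt6a* and *Krt6b* differed between the female and the male pool of *Pparg-cKO* ureters: *Krt16* read 12.56 in the female and 9.50 in the male pool, against 10.48 and 10.69 in control pools. Of 14 squamous and cornified genes tested, 3 rose (1.24% of all genes): *Krt4* by 2.24, *Lypd2* by 3.47 and *Serpinb11* by 2.93. *Sprr1a* was at -0.07. The median of the 14 was 0.41, by pair 0.19 for males and 1.27 for females. The desmosomal cadherin *Dsc2* rose by 1.67 (adjusted p = 0.014) and the tight junction gene *Cldn3* by 3.27 (adjusted p = 0.030, and 0.10 with the replicate block).

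*Shh*, the ligand, was lower in the mutants. *Shh* read 12.43 and 12.81 in control and 10.18 and 10.82 in *Pparg-cKO* pools, so that the groups did not overlap, and it fell by 2.12 (SE 0.23, adjusted p = 0.0096), a 4.36-fold difference. The call held with the replicate block and without *Pparg-cKO* replicate 2, and was lost with any other array left out (adjusted p = 0.052 to 0.14). With DMSO the value was -2.93, and limma's test of the difference had an unadjusted p of 0.039 (adjusted p = 1). The related ligand *Ihh* was dim and rose from 6.66 and 6.80 to 7.89 and 8.03, by 1.23 (SE 0.10, adjusted p = 0.0048), and *Dhh* was at 0.12. Downstream, 0 of 6 hedgehog targets were called. *Ptch1* read 10.21 and 10.56 in control and 10.17 and 10.45 in *Pparg-cKO* pools, a difference of -0.07 (95% interval -0.47 to 0.32). With DMSO it read 9.37 and 9.40 in control and 8.54 and 8.83 in *Pparg-cKO* pools, a value of -0.70 (adjusted p = 0.077). *Gli1* differed by 0.25 (-0.29 to 0.79) and *Hhip*, an SHH-binding inhibitor, by 0.48 (-0.11 to 1.08). *Foxf1* was at 0.35 and *Bmp4*, a mesenchymal signal, at 0.47 (0.03 to 0.91). In 4 of the 6 targets both *Pparg-cKO* pools lay above both control pools, as in 23.2% of all genes. In each genotype *Ptch1* was brighter with purmorphamine than with DMSO in both pools.

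**Figure D3:**
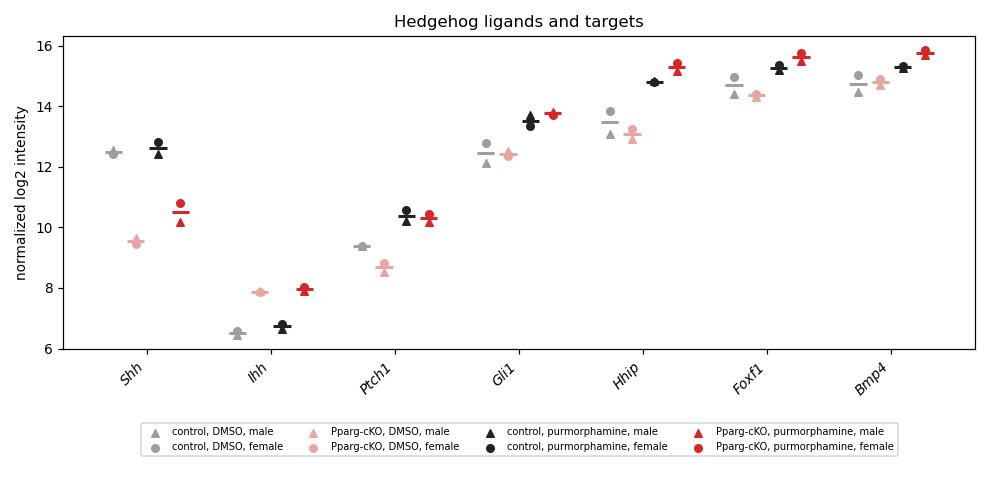
Normalized log2 intensity of hedgehog ligands and targets in each pool (triangles male, circles female, bars the group mean). *Shh* was lower in both *Pparg-cKO* pools with purmorphamine (10.18 and 10.82) than in control pools (12.43 and 12.81), while 4 of the 5 targets plotted had a mean slightly above that of control pools.

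Of the 14 fatty acid and triglyceride synthesis genes, 6 were called, all lower (1.91% of all genes), with a median of -0.86, and with DMSO also 6 (1.92%). *Dgat2*, which makes triglyceride, fell by 1.43 (adjusted p = 0.038), *Dgat1* by 0.81 (adjusted p = 0.020) and *Gpam*, which starts glycerolipid synthesis, by 0.69 (adjusted p = 0.020). *Fasn* was at -1.06 (adjusted p = 0.052) and *Scd1* at -2.58 (adjusted p = 0.12). Of 17 PPAR target genes, 4 were called, all lower (1.91% of all genes). *Pdk4*, which holds back pyruvate oxidation, read 11.73 and 12.15 in control and 10.38 and 10.64 in *Pparg-cKO* pools, a fall of 1.43 (SE 0.16, adjusted p = 0.011). *Ehhadh*, of peroxisomal fatty acid oxidation, fell by 1.94 (adjusted p = 0.013), *Plin2* by 0.75 (adjusted p = 0.041) and *Plin4* was 2.83-fold lower (adjusted p = 0.050). The calls of *Dgat2* (adjusted p = 0.096), *Dgat1* and *Gpam* (both 0.071), *Plin2* (0.30) and *Plin4* (0.079) were lost with the replicate block.

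Fat cells express many of the same genes. Their markers were low in the male *Pparg-cKO* pool: *Adipoq* read 15.65 and 15.44 in control pools but 11.42 in the male and 14.51 in the female *Pparg-cKO* pool, and *Cidec* read 14.88, 14.57, 9.67 and 13.54. The summed level of the 5 fat cell markers tested was 17.91 and 17.58 in control, 14.43 in the male and 17.10 in the female *Pparg-cKO* pool (log2 of summed intensities), and all 5 were well above background in all 4 pools. In the fit of all pools 0 of the 5 were called (median -2.58, by pair -4.23 for males and -0.93 for females). Without *Pparg-cKO* replicate 2 their median was -4.00, and without *Pparg-cKO* replicate 1 it was -1.03. Without *Pparg-cKO* replicate 1, which holds the male pool, the medians were -0.73 for 14 synthesis genes and -0.34 for 17 PPAR target genes. Without *Pparg-cKO* replicate 2 they were -0.98 and -0.80. Leaving out either control array gave medians of -0.73 and -0.94 for the synthesis genes and of -0.61 and -0.60 for the PPAR target genes. The replicate block gave 0 and 2 calls in these lists. Fewer fat cells in a pool and less RNA per cell cannot be told apart here, and their part in the lower lipid genes was not tested.

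**Figure D4:**
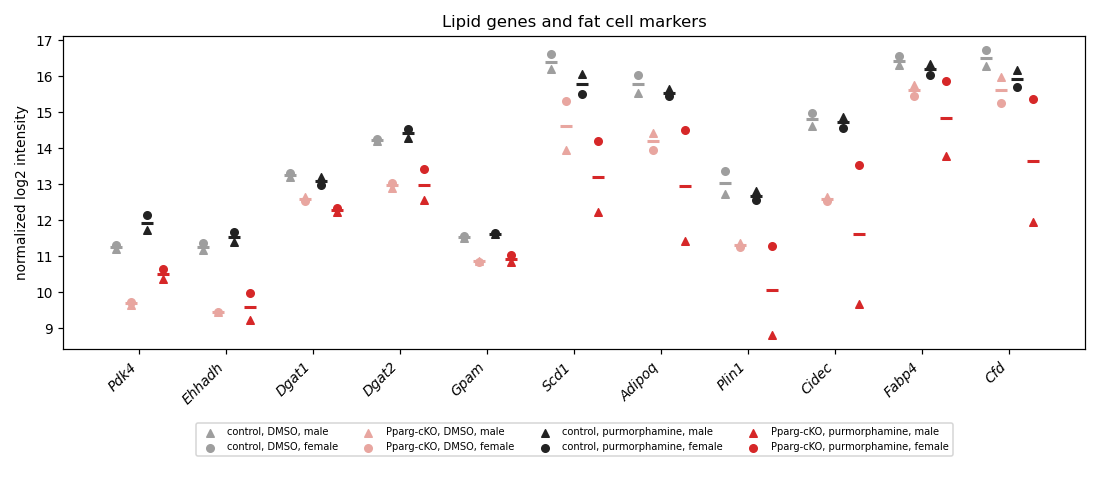
Normalized log2 intensity of lipid genes and fat cell markers in each pool (triangles male, circles female, bars the group mean). The male *Pparg-cKO* pool with purmorphamine lies far below all other pools for *Adipoq* (11.42) and *Cidec* (9.67).

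**Figure D5:**
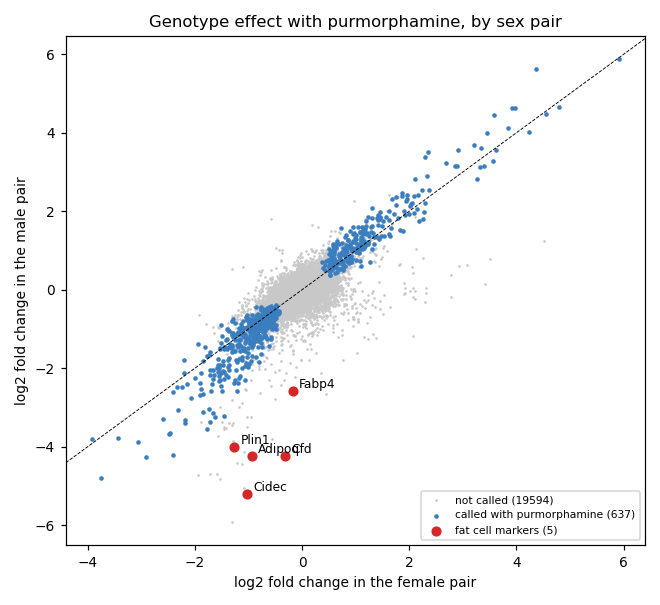
Log2 fold change of *Pparg-cKO* over control with purmorphamine in the female pair (x axis) and the male pair (y axis), for 20231 genes, with the line of equal effects dashed. Fat cell markers lie far below the line, at -4.23 against -0.93 for *Adipoq*.

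In the called genes the median changes by pair were 1.16 (male) and 1.01 (female) for the higher and -1.05 and -0.93 for the lower genes. The male pair is also replicate 1 with AlexaFluor647, so that sex, dye and replicate cannot be told apart. Over all 27066 probes, which are not independent, the male minus female differences of the control and of the *Pparg-cKO* pools with purmorphamine had an r of 0.48.

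Among genes well above background in all 4 pools, *Msln* rose most. *Msln*, a mesothelial surface protein, read 7.87 and 7.12 in control and 13.74 and 13.04 in *Pparg-cKO* pools, a rise of 5.89 (SE 0.32, adjusted p = 0.0011). *Wt1*, the other mesothelium marker, was at -1.04 (adjusted p = 0.41). *Lrrc26*, a potassium channel subunit, rose by 4.74, *Cdh16*, a kidney cadherin, by 4.51, *Gabrp*, a GABA receptor subunit, by 4.30, *Pdzk1*, a scaffold of transporters, by 4.27 and *Foxi1*, a factor of ion-transporting cells, by 4.13. *Kcnq1*, a potassium channel, rose by 4.02 and *Rnf186*, a ubiquitin ligase, by 3.97. With the replicate block the call of *Cdh16* was lost (adjusted p = 0.098). *Foxi1* read 6.57 and 6.58 in control and 10.60 and 10.82 in *Pparg-cKO* pools and was called under all 14 alternatives, as was *Lrrc26*. Some genes were not well above background in any control pool with purmorphamine. They rose by at least 29.7-fold for *Prm1*, at least 7.25-fold for *Hepacam2* and at least 4.29-fold for *Gnat3*, a taste transduction subunit. The probes of *Prm1*, *Hepacam2* and *Gnat3* passed the filter only through *Pparg-cKO* groups, where they were high, so that only bounds are given.

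Among the same genes the largest falls were in *Fgl1*, a hepatokine, which read 12.33 and 10.73 in control and 7.52 and 6.97 in *Pparg-cKO* pools and fell by 4.28 (SE 0.51, adjusted p = 0.013), in *Igfbp2*, an IGF-binding protein, which fell by 3.86 (adjusted p = 0.0023), and in *Bpifb1*, an airway and oral secretory protein, which fell by 3.60 (adjusted p = 0.019). *Lrg1* fell by 2.79, *Pianp* by 2.94. *Ffar2*, a short-chain fatty acid receptor, fell by 2.75. *Slc36a2*, an amino acid transporter, fell by 2.66 and *Pcx*, which supplies oxaloacetate for lipid synthesis, by 2.54. With the replicate block the calls of *Bpifb1* (adjusted p = 0.23), *Lrg1* (0.18), *Pianp* (0.25), *Slc36a2* (0.12) and *Pcx* (0.11) were lost. *Slc36a2* and *Pcx* were lower in the male than in the female *Pparg-cKO* pool (9.52 and 11.30 for *Slc36a2*, 10.37 and 12.06 for *Pcx*), as were the fat cell markers. *Aldh1a1*, which makes retinoic acid, fell by 1.10 (adjusted p = 0.012), and was at -0.34 with DMSO, while *Aldh1a2*, the mesenchymal enzyme, was at -0.17 (adjusted p = 0.71).

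Lists taken from fetal *Pparg-cKO* ureters, measured on other samples, were set beside these values. Of 56 genes lower in fetal mutants, 30 were lower with purmorphamine and 0 were higher, with a median of -1.07, where 1.91% of all genes were lower. Of 32 genes tested of those higher in fetal mutants, 16 were higher and 0 lower, with a median of 1.12, against 1.24% of all genes. The 16 include *Prm1*, whose probe passed the filter only through *Pparg-cKO* groups, where it was high. With only probes well above background in all purmorphamine channels, 14 of 22 of these genes were higher, with a median of 1.68. Of 53 genes of the other list, 25 were lower there, with a median of -1.07. That fit called 196 genes higher and 320 lower in all. With DMSO, 38 and 17 were called, where 1.92% of all genes were lower and 2% higher. Under the replicate block 12 and 10 were called, where 70 of all genes were lower and 77 higher. With 1 array left out the medians of the lists were -1.35 to -0.86 and 1.08 to 1.37.

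The promoter table of RefSeq (GRCm38.p6, 250 bases before to 50 after the start) held 21 of the 30 genes that were lower in both. AGGTCA, the core of PPAR response elements (searched on both strands), stood in 7 of them, which is 33.3%. It stood in 15.8% of the promoters of 12583 tested genes. The share was 23.7% of 278 genes lower and 17.2% of 163 genes higher with purmorphamine. These shares were not tested, and 21 genes are few. The full direct repeat with 1 base between the copies stood in 0 of these promoters and in 0.0556% of all. *Krt20*, the superficial cell keratin, and *Upk3b*, the uroplakin that was called lower, are shown as 2 of the 7, with AGGTCA in capitals. They are chr11:99438104-99438403 (minus strand) and chr5:136038246-136038545 (plus strand).
Krt20: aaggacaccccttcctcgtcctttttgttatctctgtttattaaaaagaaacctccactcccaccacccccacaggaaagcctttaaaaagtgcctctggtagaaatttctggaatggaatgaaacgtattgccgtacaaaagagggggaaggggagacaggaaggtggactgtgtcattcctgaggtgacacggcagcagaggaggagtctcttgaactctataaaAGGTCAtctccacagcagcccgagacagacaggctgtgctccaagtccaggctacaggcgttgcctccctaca
Upk3b: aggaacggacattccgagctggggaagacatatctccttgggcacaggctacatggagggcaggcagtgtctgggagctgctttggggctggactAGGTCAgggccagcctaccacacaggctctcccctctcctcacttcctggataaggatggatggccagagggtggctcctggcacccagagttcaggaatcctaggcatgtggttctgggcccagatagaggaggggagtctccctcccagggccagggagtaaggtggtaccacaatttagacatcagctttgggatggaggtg

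Of 7 kidney markers, 0 were called with purmorphamine (1.24% of all genes were higher) and 4 were higher with DMSO (2% of all genes). Only 2 of the 7 had a probe well above background in all purmorphamine channels, which limits a call there. The counts of the treatments are therefore not a like comparison. The test of the difference between treatments called 0 genes. *Slc12a1*, a kidney transporter, was well above background in the *Pparg-cKO* pools with DMSO alone, where it was at least 2.33-fold higher than in control pools. Its probe passed the filter only through that group, where it was high, so that its p-value is not given. The count with DMSO was not corrected for this filter. The summed level of the kidney markers was 9.31 and 9.32 in control and 10.10 and 9.57 in *Pparg-cKO* pools. Of 5 endothelium markers, 0 were called, with a median of 0.64 and values of 0.48 to 0.69. In all 5, both *Pparg-cKO* pools lay above both control pools, which held for 23.2% of all genes. Of 6 leukocyte markers, 1 was called lower (1.91% of all genes) and 4 had a positive log2 fold change, with a median of 0.12. The called marker was *Cd3e*, of T cells, which fell by 1.01 (adjusted p = 0.018, and 0.079 with the replicate block). Of the 8 urothelium markers, *Epcam* rose by 0.76 (adjusted p = 0.028, and 0.093 with the replicate block) and *Trp63* fell, while *Krt8*, *Krt18* and *Krt19* were at -0.07, -0.11 and 0.12. Of 14 cell cycle, 12 cholesterol synthesis, 9 smooth muscle and 4 mesenchyme genes tested, 0 were called.

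The largest differences of the genotype effect between treatments, among genes called in either, were in *Pla2g4c*, a phospholipase, at -0.44 with purmorphamine, where 1 of the 2 *Pparg-cKO* pools was not well above background, and -3.02 with DMSO, and in *Tac2*, a tachykinin, at 0.76 and 3.77. Neither passed limma's test of the difference (unadjusted p of 0.0028 and 0.0055, adjusted p = 1). *Colec10*, a collectin, was called only with purmorphamine (1.44, adjusted p = 0.037, and 0.058 with the replicate block), and with DMSO it was not well above background in any *Pparg-cKO* pool.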

How the data were processed

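RNA of sex-sorted pools was labelled with 2 dyes and hybridized to 4 two-color arrays. Per the file headers, mean and local background intensity per spot come from the scanner software (version 12.2.0.7, where the submitters' processing notes name 10.7.3.1), not normalized, and the processed intensity was background-subtracted and dye-normalized. The deposited table of the series holds a score (purmorphamine against DMSO as a fold with a sign), used as an alternative only. Groups came from the labels. Intensities were corrected by normexp (offset 50) and normalized by loess and Aquantile, the 4 spots of a probe were averaged without flagged spots, and 27066 probes (those that 1 or more groups showed clearly over background in each pool) were fitted with limma 3.58.1 (R 4.3.3) as separate channels (intraspot correlation 0.041 on 4000 probes), with a shared spread and no block. Each of 20231 genes was represented by its brightest probe, with Benjamini-Hochberg adjustment at 0.05. The rule of the methods (intensity 100, 1.5-fold or more in each sex pair, on processed signals of all probes with the 75th percentile at 1500 and a floor of 15) has no test. Same-numbered pools of 1 treatment share sex and dye by label. Their deviations correlated with r = 0.48 with purmorphamine and -0.17 with DMSO. A bound compares the bright group's mean with the lowest signal well above background. Members and lists were chosen with earlier results of these data known. Genes were named by list order, by largest change and by bound. The values of 2 list members are not reported here. The fit was tested on simulated data.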

Additional observations from a re-analysis of the deposited data

How the results depend on the processing

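Followed gene by gene were *Pparg*, *Shh*, the called list members and the genes named by largest change, by bound or by difference between treatments. Other list members, such as *Krt16* and *Ptch1*, were not followed. Among the genes followed, the direction of the genotype effect with purmorphamine held under all alternatives with 2 exceptions, neither of them called. *Slc34a2* was at 0 with the processed signals, and *Ibsp* ranged from -0.58 to 0.0622 with 1 array left out. Over the genes followed and the alternatives, 932 values kept direction and side of the threshold, 455 kept the direction but lost the call and 9 gained one. The counts of calls depended on the fit, and the cause was not tested. With the replicate block, 77 genes were higher and 70 lower with purmorphamine, 193 and 136 with DMSO, and 73 and 60 with both. With the replicate block and a dye term, 117 and 151 were called with purmorphamine, 239 were lower with DMSO, and 101 and 128 were called with both. Fits of 1 treatment alone with the replicate block gave 784 and 976 genes with purmorphamine and 64 and 58 with DMSO. Crossing the numbers of the DMSO pools, chosen after their deviations were seen to oppose, gave 222 higher genes, although *Xist* followed the labelled sex. The processed signals gave 117 and 117 genes with purmorphamine, 217 lower with DMSO, 91 and 94 with both and 9 in the difference between treatments. Without normalization between arrays, 761 genes were lower with purmorphamine, 724 with DMSO and 501 with both. The rule of the methods gave 468 higher genes at 1.5-fold, and 154 and 203 at 2-fold, and the same 1.5-fold in each sex pair, taken on the normalized values of the fit with no limit on intensity, gave 392 and 582. With 1 array left out, which leaves 1 group with a lone pool assumed to vary like the others, 12 to 116 genes were higher and 5 to 231 lower with purmorphamine, 33 to 275 and 16 to 164 with DMSO, 10 to 95 and 4 to 131 with both, and 0 to 23 in the difference, where the 23 came without *Pparg-cKO* replicate 1. These fits kept the intraspot correlation of all arrays.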
